A study of Mus musculus with 9 samples.

Results

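The somatic cells of the testis support germ cells without belonging to the germ line, and 44 genes that mark them were examined for chromatin contacts of the long noncoding RNA Gm4665. The genes were chosen by their known cell types, with earlier results of these data already known. They comprised 24 of Sertoli cells, 8 of Leydig cells and 5 of peritubular smooth muscle. A further 2 were of interstitial mesenchyme, 3 of macrophages and 2 of endothelium, out of 49603 annotated genes. Every peak that overlapped the annotated span of a gene, extended by 2 kb on both sides, was assigned to that gene. This gave 45 of the 38711 Gm4665 peaks and 3 of the 9448 LacZ peaks.

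The 9 samples were genomic DNA from testicular germ cells, isolated at postnatal day 35 from ICR mice described as wild-type, in 3 groups of 3 replicates. Every sample carries the same protocol text, so the groups follow the titles. Chromatin in the first group was retrieved with biotinylated probes to Gm4665, chromatin in the second with probes to LacZ, a bacterial gene absent from the mouse genome, and the third group was input. The sample titles name the first group LncRNA-20, and its identity with Gm4665 rests on the protocol text of the same samples. Whether replicates came from separate animals is not stated, and the spread between replicates can include technical spread. RNA was not measured in these files, so neither the purity of the germ cells nor the silence of the marker genes in them could be checked, and a marker gene is present in the DNA of every cell type.

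Sertoli cells line the seminiferous tubule, form the blood-testis barrier and feed and instruct germ cells under the control of follicle-stimulating hormone. Leydig cells lie between the tubules and convert cholesterol into testosterone under the control of luteinizing hormone. Peritubular myoid cells are contractile and wrap the tubule, and vessels and macrophages share the interstitium with Leydig cells. Genes of these cells are largely silent in germ cells. In the assay, an RNA that touches chromatin is fished out with complementary probes and the attached DNA is sequenced, so a peak marks retrieved DNA and carries no information on whether the gene is transcribed.

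A Gm4665 peak was listed at 23 of the 44 somatic genes (52.3%), and at 39.3% of all protein-coding genes by the same rule. LacZ peaks were listed at 3 of the 44 (6.82%), and at 16.9% of protein-coding genes. Sertoli genes accounted for 12 of the 23, Leydig genes for 5, macrophage and endothelial genes for 2 each, and smooth muscle and mesenchyme genes for 1 each. Of the 45 Gm4665 peaks, 1, in Trf, overlapped a LacZ peak by at least 1 bp, beside 344 of all 38711. Overlap with control peaks was thus rare in the whole list. A Gm4665 peak free of overlap lay at 22 genes (50%), against 39.1% of protein-coding genes. The Gm4665 list is the longer one. When it was reduced to its 9448 strongest peaks, 11 somatic genes kept a peak, and 15.4% of protein-coding genes did. The deposited lists hold 1 set of intervals for all 3 replicates, so these shares have no replicate spread and were not tested.

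The share of genes with a Gm4665 peak rose with gene length. The genes with a Gm4665 peak had a median span of 31.0 kb, against 6.79 kb for the 21 genes without one. Of 16 somatic genes under 10 kb, 3 had a peak, beside 13.5% of protein-coding genes of that length. Of 18 genes from 10 to 50 kb, 11 had one, beside 39.5% of protein-coding genes, and of 10 genes over 50 kb, 9 had one, beside 80.0%. The exception over 50 kb was Rhox5, an X-linked homeobox gene of Sertoli cells. Per length of searched sequence, Gm4665 peaks numbered 24.6 per Mb over the somatic genes and 16.5 per Mb over protein-coding genes, a ratio of 1.49. LacZ peaks numbered 1.64 per Mb over the somatic genes and 4.57 per Mb over protein-coding genes, a ratio of 0.359 that rests on 3 peaks. Without Tjp1, which alone held 7 Gm4665 peaks, the Gm4665 ratio was 1.44.

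**Figure D1:**
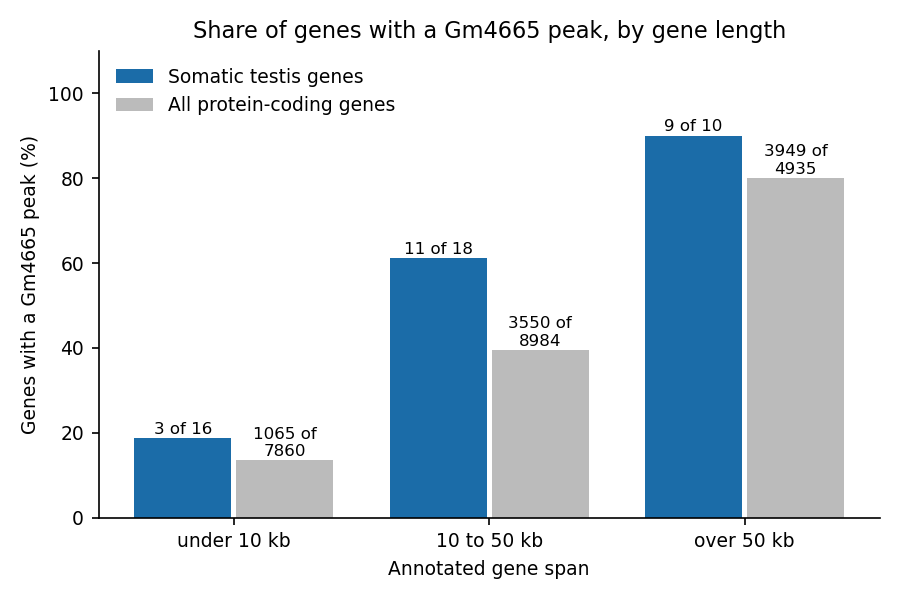
Share of genes with a Gm4665 peak over the annotated span and 2 kb flanks (y axis, percent), for the 44 somatic testis genes (blue) and all protein-coding genes (grey) in 3 classes of annotated span. Bars rise with gene length in both sets, and the somatic genes are at 18.8%, 61.1% and 90%.

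Member peaks were ordinary in strength. Replicates 1, 2 and 3 of the Gm4665 capture had a median fold over input of 11.8, 9.86 and 11.9 at these peaks (mean 11.2 ± 1.15, SD, n = 3), against 11.4, 8.50 and 10.3 in the whole list (mean 10.1 ± 1.45, SD, n = 3). The median member peak stood at percentile 55.0 of the list by mean fold, and 5 of the 45 lay in the strongest 10%. Median width was 580 bp, against 582 bp in the list. The median coefficient of variation between replicates was 21.1%, against 21.9%. Replicate 1 was the highest at 27 of 45 member peaks and at 56.3% of all peaks in the list. Read coverage at the summit, which follows replicate 1, ran from 21 to 170 at member peaks with a median of 39, against a median of 36 in the list.

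**Figure D2:**
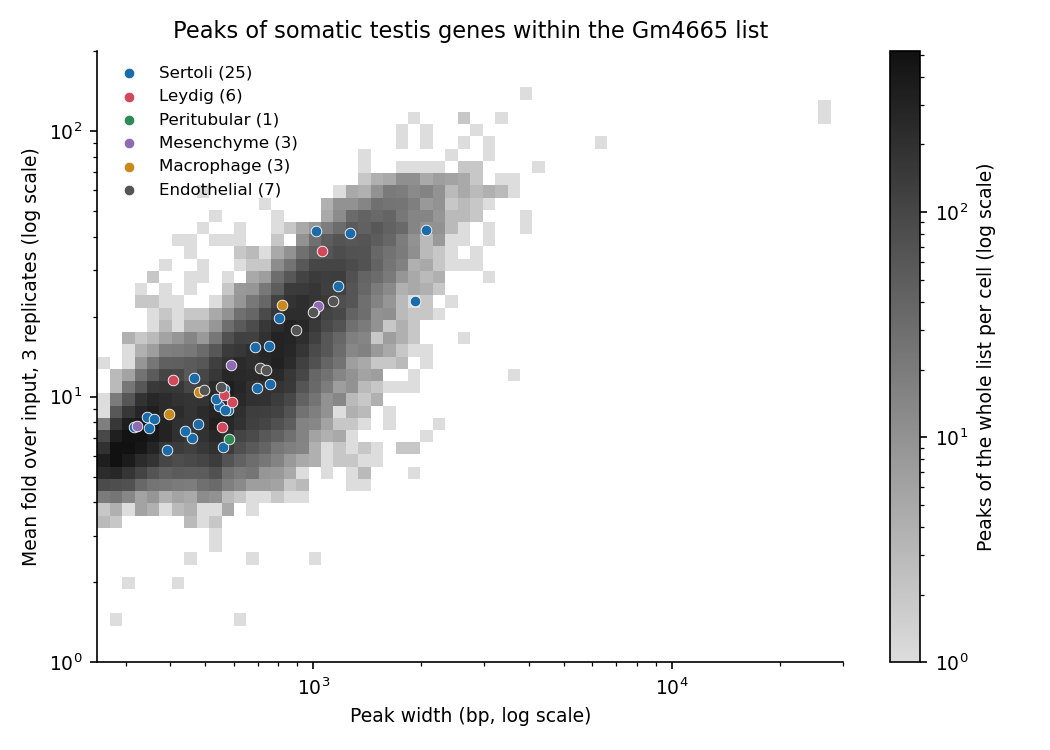
Peak width (x axis, bp, log scale) against mean fold over input of the 3 replicates (y axis, log scale) for the 45 Gm4665 peaks of somatic testis genes, coloured by cell type, over the density of all 38711 Gm4665 peaks (grey). Member peaks lie within the main cloud, from 317 to 2068 bp wide, and none reaches the widest intervals of the list.

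Of the 45 member peaks, 39 were contained in the gene span, 3 crossed an annotated end and 3 lay in a flank. The searched sequence was itself mostly gene span, and the same shares were not computed for protein-coding genes. No preference for the inside of genes can be read from these counts. A peak lay within 2 kb of an annotated end at 7 of the 44 genes (15.9%), beside 14.2% of protein-coding genes. The gene table gives no exons, so exonic and intronic positions were not separated. RefSeq promoter windows of GRCm38.p6, the assembly behind mm10, reach from 250 bases before to 50 after a listed gene start, and the table holds 28 such windows for 26 of the 44 genes. None of the 28 windows was overlapped by a Gm4665 peak, beside 1.61% of windows of protein-coding genes. A LacZ peak overlapped 1, at Cnn1, beside 0.767% of windows. Among genes with a listed start, the Gm4665 peaks closest to one lay at Cyp11a1 and Ctsl, 2557 and 2654 bp downstream. Star and Rhox8 have no listed start, and each had a Gm4665 peak across its lower annotated end. Whether those peaks touch a promoter cannot be told from these windows.

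These 3 promoters are shown because a control peak touched the first and the other 2 were the closest to a Gm4665 peak among the 26 genes with a listed start. Cnn1 lies on the plus strand at chr9:22099003-22099302 and its capitals mark the 76 bases under the LacZ peak. Cyp11a1 lies on the plus strand at chr9:57997774-57998073. Ctsl lies on the minus strand at chr13:64370471-64370770 and its capitals mark an E-box and a SOX site. All are written 5′ to 3′ from RefSeq, build GRCm38.p6.
Cnn1: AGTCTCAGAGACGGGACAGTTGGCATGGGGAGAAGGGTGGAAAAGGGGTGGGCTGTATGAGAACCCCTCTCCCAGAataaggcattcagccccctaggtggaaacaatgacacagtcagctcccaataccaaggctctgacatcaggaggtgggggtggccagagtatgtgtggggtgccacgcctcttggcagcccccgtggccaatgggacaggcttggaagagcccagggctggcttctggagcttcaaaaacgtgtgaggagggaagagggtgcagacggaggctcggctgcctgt
Cyp11a1: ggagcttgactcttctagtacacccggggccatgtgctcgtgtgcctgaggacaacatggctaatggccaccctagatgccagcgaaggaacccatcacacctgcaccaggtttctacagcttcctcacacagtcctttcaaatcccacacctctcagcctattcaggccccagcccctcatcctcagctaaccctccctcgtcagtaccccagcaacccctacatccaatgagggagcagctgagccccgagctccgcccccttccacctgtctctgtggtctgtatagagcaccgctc
Ctsl: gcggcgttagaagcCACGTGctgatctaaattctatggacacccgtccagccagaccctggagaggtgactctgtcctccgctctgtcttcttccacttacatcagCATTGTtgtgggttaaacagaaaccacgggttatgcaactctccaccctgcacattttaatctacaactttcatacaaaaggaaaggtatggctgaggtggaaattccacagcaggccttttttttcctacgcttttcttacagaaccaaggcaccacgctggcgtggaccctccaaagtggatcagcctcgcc

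Motifs searched on both strands were AAGGTCA for the steroidogenic factor NR5A1, AGATAA for GATA factors, ACAATG for SOX factors, CACGTG for an E-box and TATAAA for a TATA box. No motif is contained in another, and a match is a description of sequence only. The Ctsl window held CACGTG from its base 15 and ACAATG, read on the opposite strand, from base 107. Cnn1 held ACAATG from base 104, outside the bases under the LacZ peak, and Cyp11a1 held none of the 5. Of the 28 somatic windows, 0 held AAGGTCA, 5 AGATAA, 3 ACAATG, 2 CACGTG and 3 TATAAA. Over all 32851 promoter windows, 4.72% held AAGGTCA, 11.2% AGATAA, 12.6% ACAATG, 7.15% CACGTG and 13.6% TATAAA.

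The strongest peaks at Sertoli genes lay in Trf, Tjp1 and Wt1. Trf encodes transferrin, which carries iron to germ cells behind the barrier, and its Gm4665 peak on chromosome 9 from 103225432 to 103227499 was the widest of all member peaks. Replicates 1, 2 and 3 of the Gm4665 capture had folds of 56.5, 39.5 and 30.9 there (mean 42.3 ± 13.0, SD, n = 3), higher than 97.8% of the list. The LacZ peak inside the Trf interval, from 103225640 to 103226309, had folds of 7.27, 6.23 and 6.34 (mean 6.61 ± 0.568, SD, n = 3), higher than 2.37% of the LacZ list. Trf had the highest mean fold of the 45 Gm4665 member peaks and the lowest of the 3 LacZ member peaks. The 2 lists were normalized separately, so their folds are set side by side and were not tested against each other.

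Tjp1 encodes a scaffold protein of tight junctions, the seal of the blood-testis barrier. It is the longest of the 44 genes, at 232 kb, and held 7 Gm4665 peaks and no LacZ peak. The strongest Tjp1 peak, from 65381576 to 65382590 on chromosome 7, had folds of 42.3, 39.5 and 44.4 (mean 42.0 ± 2.49, SD, n = 3), the 3 replicates lying close together. The other 6 had mean folds of 7.44 to 23.0. Relative to the single start that the promoter table lists for Tjp1, 6 of the 7 peaks lay upstream, 10.3 to 118 kb away but still inside the annotated span, and 1 lay 37.7 kb downstream.

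Wt1 encodes a zinc finger transcription factor needed for gonad formation and Sertoli cell identity. Its single peak, from 105161865 to 105163130 on chromosome 2, had folds of 50.5, 38.4 and 34.5 (mean 41.1 ± 8.30, SD, n = 3) and lay 10484 bp inside the upper annotated end. Other transcription factor genes of the Sertoli group had weaker peaks or none. Nr5a1, which encodes the steroidogenic factor shared by Sertoli and Leydig cells, had a peak from 38706591 to 38707277 on chromosome 2 with folds of 16.7, 15.3 and 14.1 (mean 15.4 ± 1.28, SD, n = 3). Gata4, a regulator of gonadal somatic genes, had 2 peaks, the stronger from 63223409 to 63223971 on chromosome 14 with folds of 10.2, 7.77 and 14.0 (mean 10.6 ± 3.13, SD, n = 3). The weaker Gata4 peak averaged 9.26 ± 1.32 (SD, n = 3). No Gm4665 peak was listed at Sox9, the switch of Sertoli cell fate, or at Gata1.

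Rhox8, an X-linked homeobox gene, had a peak across its lower annotated end, from 37874396 to 37875197 on chromosome X. Its folds were 22.8, 16.3 and 20.2 (mean 19.8 ± 3.28, SD, n = 3). It was the only X-linked member of 3 with a peak of either list. The others were Rhox5 and Gata1, whose nearest Gm4665 peaks lay 65.5 and 95.8 kb away; for Rhox5 that nearest peak was the one at Rhox8. Rhox genes are a family of similar copies, and the handling of reads that match several copies is not stated.

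Signalling genes of Sertoli cells differed in their peak number, and the longer genes held more. Fshr, the receptor for follicle-stimulating hormone, held 5 peaks over 216 kb. The strongest Fshr peak, from 89098427 to 89099598 on chromosome 17, had folds of 26.6, 24.8 and 26.7 (mean 26.1 ± 1.06, SD, n = 3), and the other 4 averaged 6.44 to 8.88. Kitl, which encodes the ligand of the KIT receptor on spermatogonia, held 3 peaks, the strongest from 100025975 to 100026726 on chromosome 10 with folds of 19.8, 13.3 and 13.6 (mean 15.5 ± 3.67, SD, n = 3). It lay 10154 bp downstream of the listed start, and the other Kitl peaks averaged 11.2 ± 3.52 and 6.99 ± 2.37 (SD, n = 3 each). Gdnf, a growth factor that maintains spermatogonial stem cells, held 1 peak from 7819735 to 7820051 on chromosome 15 with folds of 10.2, 8.50 and 4.38 (mean 7.70 ± 3.01, SD, n = 3), more than a factor of 2 between the highest and the lowest replicate. Hormone genes of Sertoli cells, Amh, Inha and Inhbb, and the Hedgehog ligand gene Dhh held none. The genes without a peak span 2.44 kb (Amh) to 16.9 kb (Dhh), against 84.8 kb for Kitl and 27.5 kb for Gdnf.

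The remaining Sertoli genes with peaks had mean folds below the list median of 9.99, Mro only just. Mro, a gene of the male gonad, had folds of 10.02, 9.47 and 9.87 (mean 9.78 ± 0.283, SD, n = 3) in a peak inside the gene, the replicates lying close together. Ctsl, a lysosomal protease gene, had folds of 10.6, 7.14 and 6.99 (mean 8.23 ± 2.02, SD, n = 3) in a peak from 64367507 to 64367866 on chromosome 13. Clu, which encodes the secreted chaperone clusterin, had folds of 6.54, 6.85 and 5.55 in a peak from 65969773 to 65970162 on chromosome 14 (mean 6.31 ± 0.680, SD, n = 3), the lowest mean of the 45 member peaks and higher than 13.8% of the list. The barrier gene Cldn11, the gap junction gene Gja1, the intermediate filament gene Vim, Aard and Cst9 held no Gm4665 peak.

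**Figure D3:**
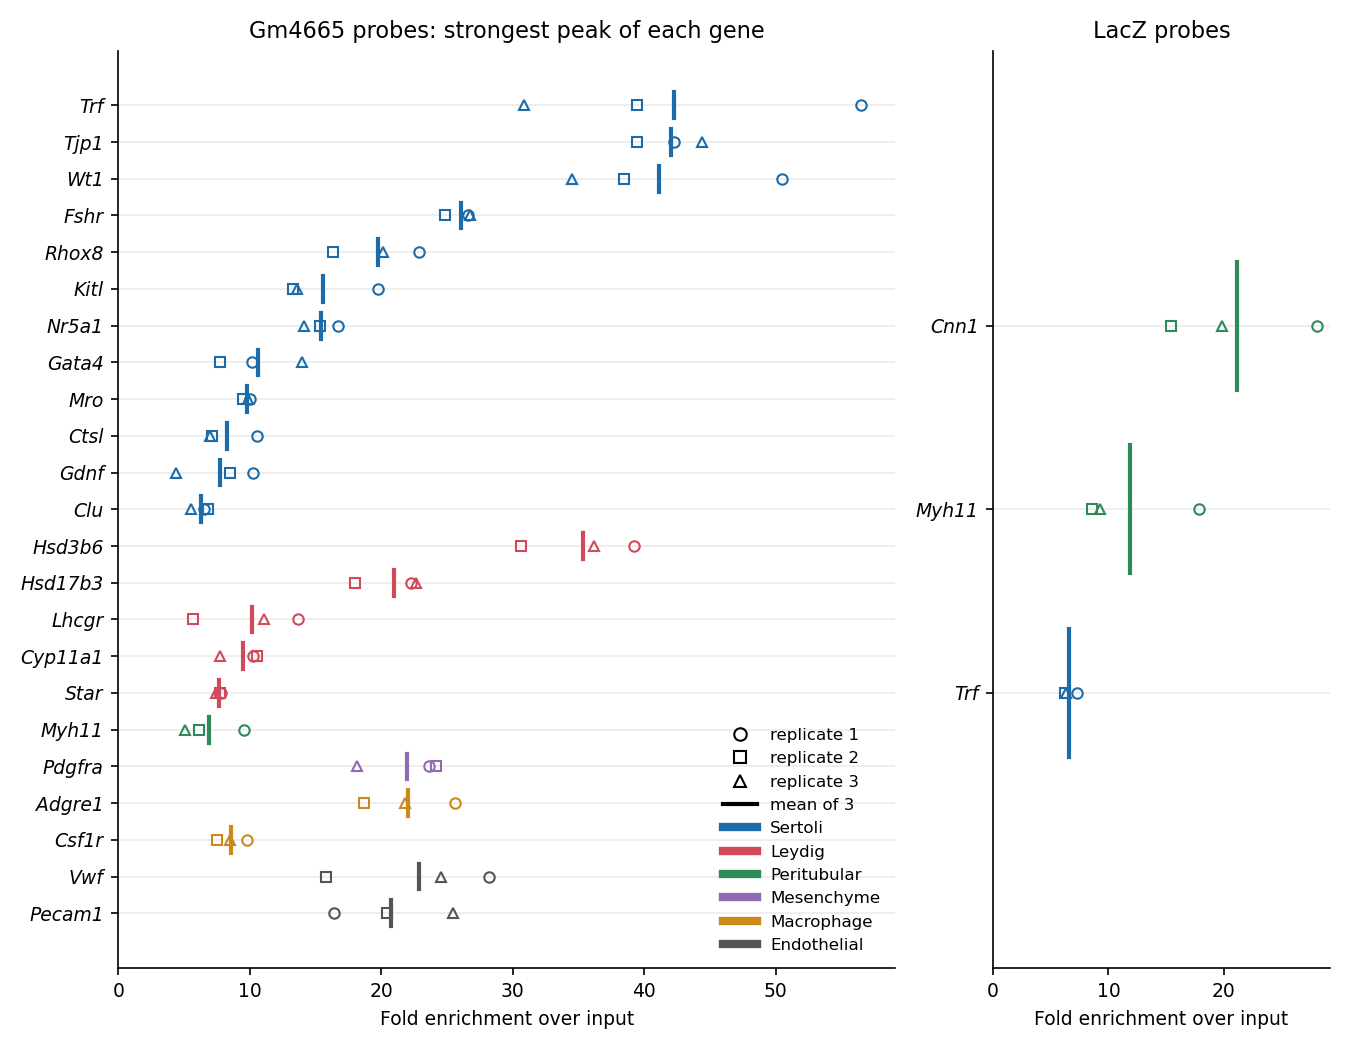
Fold enrichment over input (x axis) of the strongest Gm4665 peak at each of the 23 somatic genes that had one (left) and of the 3 LacZ peaks at somatic genes (right), with 1 open symbol for each replicate, a bar at the mean of 3 and colours for cell types. The lists were normalized separately, so the panels have their own axes; Trf, Tjp1 and Wt1 have the highest Gm4665 means at 42.3, 42.0 and 41.1.

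Of the 8 Leydig genes, 5 had a Gm4665 peak and none had a LacZ peak, beside 39.3% and 16.9% of protein-coding genes. Products of these 5 genes follow the path of testosterone synthesis. Lhcgr, the receptor that receives the luteinizing hormone signal, had a peak from 88745531 to 88746095 on chromosome 17 with folds of 13.6, 5.69 and 11.1 (mean 10.1 ± 4.06, SD, n = 3), with replicate 2 far below the others. Star, which brings cholesterol into the mitochondrion, had folds of 7.84, 7.73 and 7.44 (mean 7.67 ± 0.207, SD, n = 3) in a peak from 25808105 to 25808660 on chromosome 8 that crossed its lower annotated end. Cyp11a1, which cuts the cholesterol side chain, had a peak from 58000581 to 58001174 on chromosome 9 with folds of 10.2, 10.5 and 7.74 (mean 9.51 ± 1.53, SD, n = 3). Lhcgr stood near the middle of the list, Cyp11a1 at percentile 46.6 and Star lower than both.

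The strongest Leydig peaks lay at Hsd3b6 and Hsd17b3. Hsd3b6, an isomerase gene of adult Leydig cells, had folds of 39.2, 30.6 and 36.2 (mean 35.3 ± 4.36, SD, n = 3), higher than 96.1% of the list. This peak, from 98804993 to 98806053 on chromosome 3, crossed the annotated end opposite to the listed start, 8390 bp downstream of it. A second Hsd3b6 peak inside the gene averaged 11.5 ± 1.43 (SD, n = 3). Hsd17b3, which makes testosterone in the last step, had folds of 22.3, 18.0 and 22.6 (mean 21.0 ± 2.56, SD, n = 3) in a peak from 64055933 to 64056938 on chromosome 13 that lay 1336 bp beyond its downstream end and overlapped the gene Gm30999. Cyp17a1, Hsd3b1 and the peptide hormone gene Insl3 held no peak.

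Hsd3b6 and Hsd3b1 lie in a cluster of 6 Hsd3b genes that spans 365 kb with flanks and held 10 Gm4665 peaks. That was 27.4 per Mb, beside 16.5 per Mb over protein-coding genes with flanks. Apart from the strong Hsd3b6 peak, the Gm4665 peaks of the cluster had mean folds from 6.46 to 11.5. The single LacZ peak of the cluster lay in Hsd3b2, with folds of 21.8, 6.82 and 8.36. Hsd3b genes are near-identical in places, so reads could be divided among copies and the assignment to 1 copy is uncertain. Lhcgr and Fshr, the receptors for the 2 gonadotropins, are neighbours on chromosome 17. The 488 kb from one to the other with flanks held 14 Gm4665 peaks, or 28.7 per Mb. The strongest lay between the genes, from 88911818 to 88913404, with folds of 30.3, 33.3 and 36.2 (mean 33.3 ± 2.94, SD, n = 3), and the region's only LacZ peak, with folds of 20.7, 8.86 and 7.37, overlapped it. The Rhox cluster on chromosome X, read in the same way, held 3 Gm4665 peaks over 1096 kb, or 2.74 per Mb. All 3 regions include sequence between genes, which the protein-coding density mostly leaves out. These neighbourhoods were chosen after their values had been seen.

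**Figure D4:**
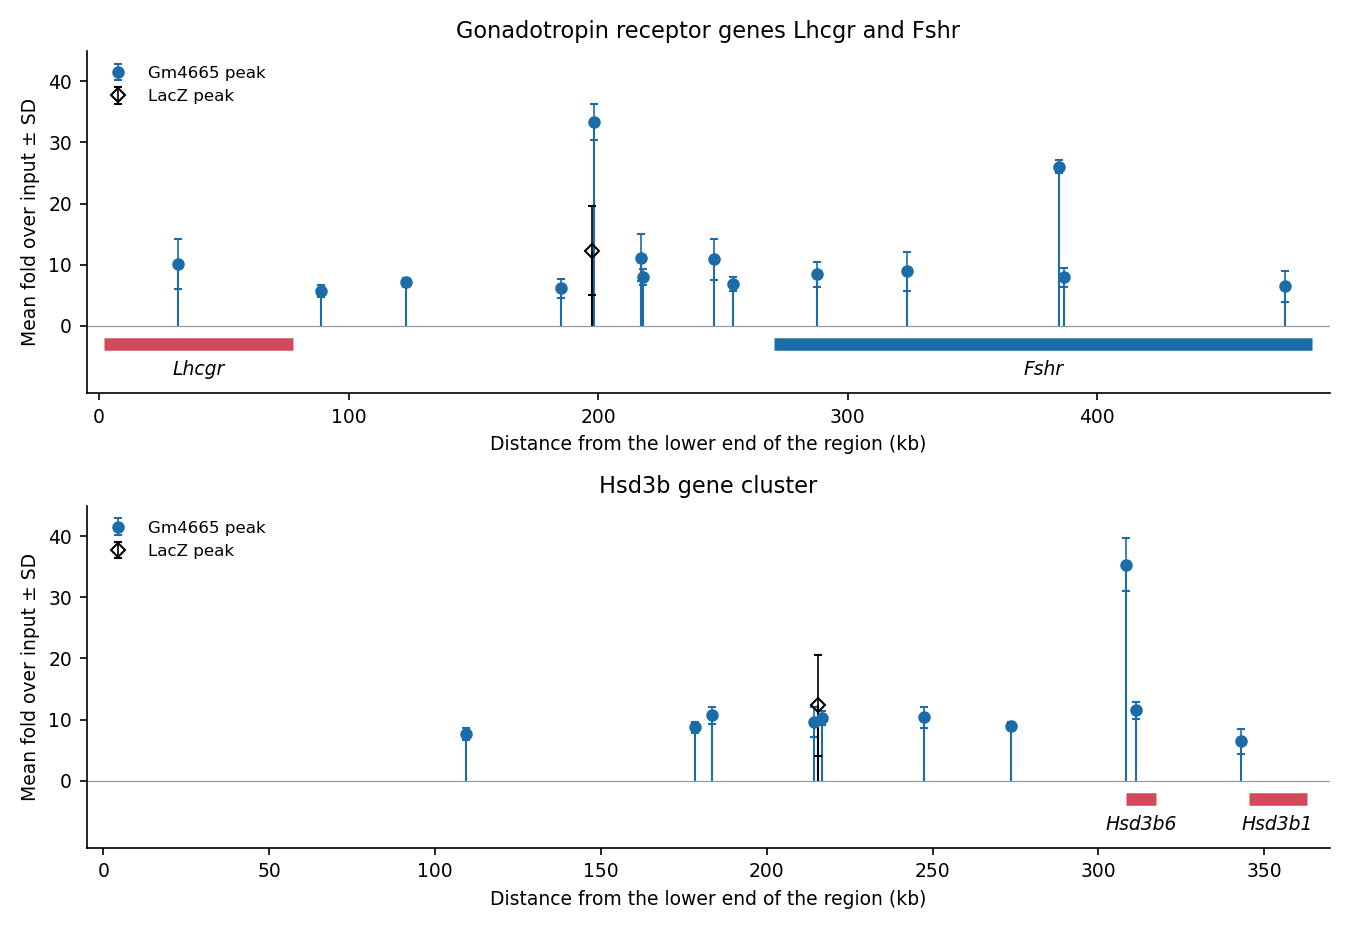
Mean fold over input ± SD of 3 replicates (y axis) for Gm4665 peaks (blue circles) and LacZ peaks (open diamonds) along the Lhcgr to Fshr region (top) and the Hsd3b cluster (bottom), by distance from the lower end of each region (x axis, kb), with the 4 marker genes drawn as bars. The peak that stands out in each region averages 33.3 between the receptor genes and 35.3 at Hsd3b6.

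Of the 5 smooth muscle markers, 1 had a Gm4665 peak and 2 had a LacZ peak, beside 39.3% and 16.9% of protein-coding genes. It was the only marker group with more LacZ than Gm4665 peaks, 2 against 1, which is too few to characterize the cell type. In the wider list of 12 smooth muscle genes described below, 8 had a Gm4665 peak and 4 a LacZ peak. Myh11, a smooth muscle myosin gene, had a weak Gm4665 peak from 14242510 to 14243090 on chromosome 16 with folds of 9.55, 6.12 and 5.10 (mean 6.92 ± 2.33, SD, n = 3). Elsewhere in Myh11, a LacZ peak from 14209016 to 14209706 had folds of 17.8, 8.55 and 9.23 (mean 11.9 ± 5.18, SD, n = 3). Cnn1, which encodes the actin-binding protein calponin, had a LacZ peak alone, from 22097910 to 22099078 on chromosome 9, with folds of 28.1, 15.4 and 19.8 (mean 21.1 ± 6.44, SD, n = 3). LacZ replicate 1 was the highest at all 3 member peaks of that list and at 95.9% of the list, so the LacZ means lean on it. Acta2, Des and Tagln held no peak of either list.

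Mesenchyme, macrophage and endothelial genes are few, and 5 of the 7 had a Gm4665 peak, beside 39.3% of protein-coding genes. Spans of these 5 ran from 25.6 kb (Csf1r) to 134 kb (Vwf). Of protein-coding genes, 39.5% from 10 to 50 kb and 80.0% over 50 kb had a peak. Pdgfra, a growth factor receptor gene of interstitial progenitors, held 3, the strongest from 75177022 to 75178053 on chromosome 5 with folds of 23.6, 24.1 and 18.1 (mean 22.0 ± 3.33, SD, n = 3). The weakest Pdgfra peak averaged 7.73 ± 1.72 (SD, n = 3). Adgre1, which encodes a macrophage surface receptor, had folds of 25.6, 18.7 and 21.8 (mean 22.0 ± 3.44, SD, n = 3) in the stronger of 2 peaks, from 57423222 to 57424038 on chromosome 17. The other averaged 10.4 ± 2.20 (SD, n = 3). Csf1r, the receptor for the macrophage growth factor, had folds of 9.79, 7.53 and 8.47 (mean 8.60 ± 1.14, SD, n = 3) in a peak inside the gene. The mesenchymal transcription factor gene Tcf21 and the macrophage gene Cd68, both under 10 kb, held none.

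Both endothelial genes held several peaks. Vwf, which encodes the clotting factor stored in endothelium, held 5 over 134 kb, the strongest from 125603282 to 125604417 on chromosome 6 with folds of 28.2, 15.8 and 24.6 (mean 22.9 ± 6.40, SD, n = 3). Pecam1, an adhesion gene of endothelial junctions, held 2, the stronger from 106710404 to 106711400 on chromosome 11 with folds of 16.4, 20.4 and 25.5 (mean 20.8 ± 4.55, SD, n = 3), the only gene of these groups with replicate 1 lowest at its strongest peak. The other Vwf peaks averaged 10.6 to 17.8 and the other Pecam1 peak 12.9 ± 4.69 (SD, n = 3). Vwf, Fshr and Tjp1 were the 3 genes with 5 or more peaks and held 17 of the 45 between them.

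**Figure D5:**
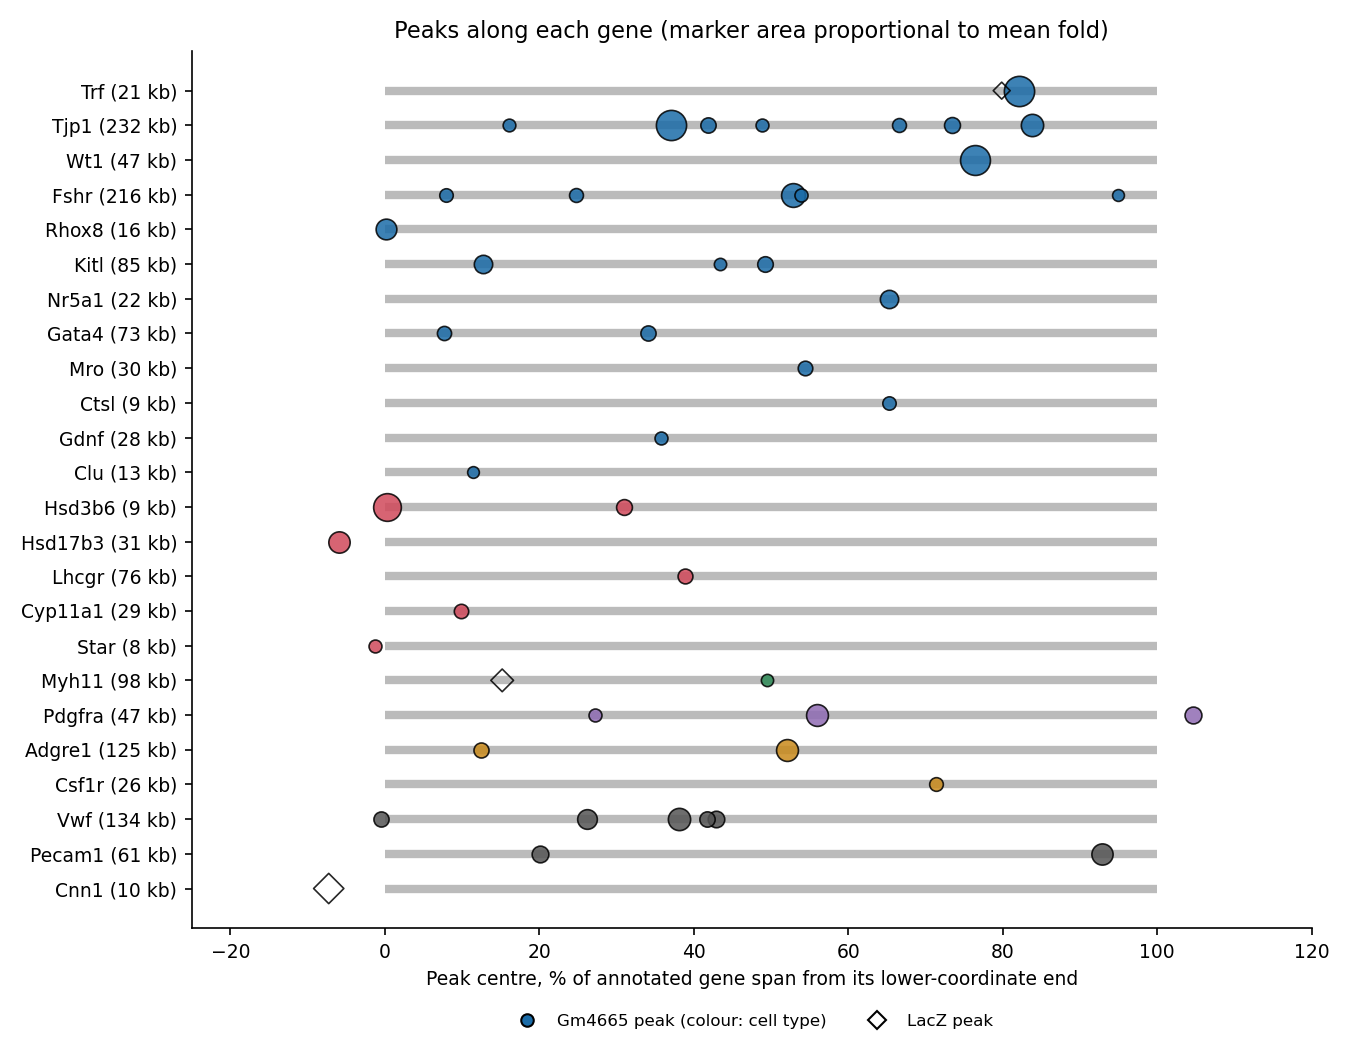
Position of each peak centre (x axis, percent of the annotated gene span, counted from the lower coordinate) for Gm4665 peaks (filled circles, coloured by cell type) and LacZ peaks (open diamonds) of the 23 genes with a Gm4665 peak and of Cnn1, which had a LacZ peak alone, with marker area proportional to mean fold within its list. Peaks are spread along the spans, and 3 Gm4665 peaks sit in a flank, at Hsd17b3, Pdgfra and Vwf.

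Neither list held a peak at 20 of the 44 genes. The 21 genes without a Gm4665 peak had their nearest one a median of 31.3 kb away, from 2.12 kb at Hsd3b1 to 95.8 kb at Gata1. The flank of 2 kb decided few cases. Just inside it lay the Pdgfra peak 1851 bp beyond the gene (mean fold 13.1 ± 1.71, SD, n = 3) and the Hsd17b3 peak, and just outside it lay the peak 2117 bp from Hsd3b1 (mean fold 6.46 ± 2.03, SD, n = 3). Within 10 kb lay also the nearest peaks of Inha, Cldn11, Sox9 and Insl3, with mean folds of 13.4, 6.87, 12.9 and 11.9.

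Wider lists of genes of the same cells were read by the same rule. Of 75 such genes in 5 lists, 37 (49.3%) had a Gm4665 peak and 15 (20%) a LacZ peak, against 39.3% and 16.9% of protein-coding genes. Steroid and cholesterol genes had a Gm4665 peak at 12 of 20, among them the aromatase gene Cyp19a1 (mean fold 31.1 ± 9.27) and the prolactin receptor gene Prlr (28.0 ± 12.4; SD, n = 3 each). Cyp19a1 also held a LacZ peak elsewhere, with a mean fold of 25.4 ± 14.2 (SD, n = 3) within the control list, and Prlr held none. Smooth muscle genes had one at 8 of 12, led by the integrin gene Itga8 (52.9 ± 16.98), the transcriptional coactivator gene Myocd (31.2 ± 4.85) and the kinase gene Mylk (18.2 ± 5.77; SD, n = 3 each). In the LacZ list Mylk held 3 peaks, the strongest at 28.4 ± 14.2, Myocd held 1 at 16.2 ± 4.93 (SD, n = 3 each), and Itga8 held none. The median span of this smooth muscle list was 54.2 kb, and among the 5 smooth muscle markers 1 had a Gm4665 peak.

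Sertoli and gonad genes had a Gm4665 peak at 9 of 23, led by the tight junction gene Ocln (26.2 ± 2.82), the sex-determination gene Dmrt1 (22.6 ± 3.35) and the growth factor gene Fgf9 (19.5 ± 6.34; SD, n = 3 each). Control peaks lay at Dmrt1 (2, the stronger with a mean fold of 21.5 ± 15.9) and at Fgf9 (19.2 ± 15.5; SD, n = 3 each), and none lay at Ocln. The Fgf9 control peak ended at 58085884 on chromosome 14, and the Gm4665 peak began at 58085911. Macrophage genes had one at 4 of 10, led by the phagocytic receptor gene Mertk with 8 peaks and a highest mean fold of 28.8 ± 4.33, then the scavenger receptor genes Cd163 (13.2 ± 2.63) and Mrc1 (10.9 ± 1.81; SD, n = 3 each). Mertk also held 2 LacZ peaks, the stronger with folds of 72.3, 34.6 and 45.7 (mean 50.9 ± 19.4, SD, n = 3), higher than 99.6% of the control list. Cd163 and Mrc1 held none. Endothelial genes had one at 4 of 10, led by the growth factor receptor gene Kdr (14.1 ± 3.06), the transcription factor gene Sox17 (11.9 ± 3.27) and Flt1 (9.12 ± 0.467; SD, n = 3 each). Flt1 also held 2 LacZ peaks, the stronger averaging 19.6 ± 13.9 (SD, n = 3), and Kdr and Sox17 held none.

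Of 82 germ line genes, 32 (39.0%) had a Gm4665 peak and 13 (15.9%) a LacZ peak, near the 39.3% and 16.9% of protein-coding genes. The single germ line lists lay on either side of that Gm4665 share. Spermatogonial genes had a Gm4665 peak at 8 of 24 (33.3%), meiotic prophase genes at 12 of 34 (35.3%) and spermatid genes at 12 of 24 (50%). Gm4665 peaks numbered 24.6 per Mb at the 44 somatic markers and 18.4 at the 75 wider somatic genes, beside 13.8 at the 82 germ line genes and 16.5 at protein-coding genes. The single lists overlapped. Wider somatic lists ran from 8.29 per Mb (endothelial) to 30.2 (macrophage), and germ line lists from 10.2 (meiotic prophase) to 22.1 (spermatid). LacZ peaks numbered 1.64 per Mb at the markers and 5.82 at the wider somatic genes, beside 3.71 at germ line genes and 4.57 at protein-coding genes. The markers were thus below the protein-coding density for LacZ peaks and the wider somatic genes above it. No test of the difference between the gene groups was made, and gene length and position differ between them.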

How the data were processed

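Peak lists of the 2 probe sets were analysed for 44 genes. Per the file names the authors called peaks with MACS2 against input; its version and settings, the aligner and the joining of replicates were not given in the sources used here. Per the submitters' processing notes, reads were placed on mm10. Per the file headers, each deposited row holds a linear fold (ratio) over input for each of 3 replicates and a pileup signal (read coverage at the summit) of an unnamed replicate. The ratio of replicate 1 fold to pileup plus 1 was within 0.0005 of its highest value in 47.5% of Gm4665 and 52.8% of LacZ rows, so the pileup follows replicate 1. Library read totals were not used here, so depth is known only from the pileup.

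Repeated rows (649 and 165) were joined with the highest fold kept, and peaks off chromosomes 1 to 19, X and Y (116 and 25) left out. Genes came from RefSeq GRCm38.p6, without 340 entries starting below 3 Mb, which left 49603 genes and 21779 protein-coding ones. All 44 members matched by symbol. Overlap counting was tested on simulated intervals in Python 3.11.15 with pandas 2.3.3. Means are given with the SD over 3 replicates. All members with a Gm4665 peak, or with a LacZ peak alone, and the 3 strongest genes of each wider list were named, apart from 1 gene that is not reported here. Members and lists were chosen with earlier results of these data known, so counts are descriptions set beside all protein-coding genes, with no test. Alternatives were the flank, a fold minimum, the overlap rule, list size, autosomes alone, repeated rows, and leaving out each replicate or Tjp1.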

Additional observations from a re-analysis of the deposited data

How the results depend on the processing

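Of the 44 genes, 22 to 25 had a Gm4665 peak without a flank, with 5 kb flanks or with a minimum fold of 5 in each replicate, against 23 as reported. With as many strongest Gm4665 peaks as LacZ peaks the count was 11, since fewer peaks were searched. Genes with a LacZ peak numbered 2 to 4, and those with a Gm4665 peak free of LacZ overlap 21 or 22. The density ratio to protein-coding genes was 1.38 to 1.64 for Gm4665 peaks and 0.265 to 0.521 for LacZ peaks. Leaving out Tjp1 was chosen after seeing the data. Without each replicate in turn, the median mean fold of member peaks was 10.4 to 11.6 for Gm4665 and 8.89 to 13.5 for LacZ. The strongest peak of a gene was the same interval in all 69 such recalculations, and its mean moved to 0.810 to 1.22 times the reported value. No paired analysis was possible because the reported counts and densities rest on the presence of a peak, which has no value per replicate. Overlapping peaks such as those at Trf have folds for replicates 1 to 3 in both lists, but these were not compared by replicate, since the lists were normalized separately.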

Other observations

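Sox9 itself held no peak of either list, but it lies in a long stretch without other protein-coding genes, between Gm11677 and Slc39a11 on chromosome 11. Sox9 is known for control elements far from the gene, and the stretch was examined after the peaks of the marker genes had been seen. Over its 1519 kb it held 23 Gm4665 peaks, 9 on the lower-coordinate side of Sox9 and 14 on the upper side, or 15.1 per Mb, and 10 LacZ peaks, or 6.59 per Mb. Protein-coding genes with flanks held 16.5 Gm4665 and 4.57 LacZ peaks per Mb. Those values cover gene spans, whereas the stretch lies outside other protein-coding genes. The density over sequence between genes was not computed, so neither an excess nor a lack of peaks can be read here. The Gm4665 peak nearest to Sox9, 7.99 kb away, had folds of 15.7, 11.2 and 11.9 (mean 12.9 ± 2.40, SD, n = 3). The strongest, from 113077050 to 113078879 at the noncoding gene 2610035D17Rik, had folds of 62.7, 35.0 and 49.6 (mean 49.1 ± 13.9, SD, n = 3), above all peaks at the 44 marker genes. A LacZ peak of 12.9 ± 4.89 (SD, n = 3) lay close to it without overlap. Gm4665 peaks of the stretch had a median mean fold of 12.6, and the LacZ peaks one of 15.9 within their own list.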
